A study of Mus musculus with 6 samples.

Results

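The Hox cluster genes encode homeodomain transcription factors. All genes with a single symbol made of Hox, a cluster letter (a, b, c or d) and a number were taken, each by its probe set with the highest mean over the 6 arrays. This gave 37 genes of the 19937 with a single-symbol probe set: 10 of the Hoxa, 9 of the Hoxb, 9 of the Hoxc and 9 of the Hoxd cluster. Each of the 37 had 1 such probe set. On assembly GRCm38.p6 the clusters lie on chromosomes 6 (Hoxa), 11 (Hoxb), 15 (Hoxc) and 2 (Hoxd).

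The study used 6 Affymetrix arrays, 3 in each of 2 groups, of mouse thymocytes at the double-negative (DN) stage, before CD4 and CD8 appear. RAG-/- arrays are of such cells from Rag2-/- mice, which cannot rearrange T-cell receptor genes. The DNTLX3+ group held sorted DN thymocytes of wild-type mice, transduced with a pMSCV-GFP retroviral vector carrying TLX3, a homeobox oncogene of T-cell leukaemia. Those cells were then kept with irradiated OP9-DL1 stromal cells, which present a Notch ligand, for 4 to 5 weeks in medium with interleukin 7 and Flt3 ligand. The protocol, written once for all samples, names C57Bl/6 mice aged 4 to 6 weeks. Whether the RAG-/- cells were cultured is unclear from the labels, and no array of cells given the empty vector was analysed here. Genotype, vector and possibly culture therefore cannot be told apart between the groups. Separate mice or cultures are not stated for the replicates, and the p-values thus reflect only how far these samples spread, which may be technical.

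Hox genes lie in 4 clusters, numbered by paralog group, and in the embryo their order along the chromosome matches the order of their domains from head to tail. Trithorax proteins such as Kmt2a (MLL) keep clusters active and Polycomb proteins keep them silent. Hoxa genes are active in blood stem cells and early thymic progenitors and decline as T cells mature, and their renewed expression marks a class of T-cell leukaemia.

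The arrays carry log2 values, and every difference is DNTLX3+ minus RAG-/-. "Rose" means a limma p, adjusted by Benjamini-Hochberg over all tested probe sets, under 0.05. Signal range differed between groups: RAG-/- arrays had interquartile ranges of 3.09 to 3.18 (log2), against 2.47, 2.85 and 2.75 on DNTLX3+ replicates 1, 2 and 3. Dim genes were also shifted up. Among 9181 genes whose mean level lay under the median of probe sets, the median difference was 0.30, against 0.11 over all genes. With quantile normalization repeated on the deposited values, those medians became 0.07 and 0.04, and after cyclic loess 0.03 and 0.00. Tlx3 was at 5.40, 5.42 and 5.52 on the RAG-/- arrays and at 7.09, 6.52 and 6.45 on the DNTLX3+ arrays. The T-lineage markers Cd3e (means of 11.35 and 10.85) and Cd3g (13.11 and 12.72) were far above the array medians of 6.22 to 6.35 in both groups. Of all genes 23.0% rose and 19.4% fell, and of genes at or above the median level 15.1% rose and 30.6% fell. Of 15 T-lineage markers, 2 rose (Cd5 by 0.82 and Gata3 by 0.66), 10 fell and the median was -0.62, or -0.57 after cyclic loess. The falls were led by Il2ra (-1.19) and Ptcra (-1.11), genes of the DN stage, and their relation to the Hox differences was not tested.

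All 4 clusters were higher in the DNTLX3+ arrays, at low levels. Of the 37 genes, 25 rose, none fell and 12 did not pass, where 23.0% of all genes and 32.4% of genes under the median level rose. The 25 were 7 of 10 in Hoxa, 5 of 9 in Hoxb, 7 of 9 in Hoxc and 6 of 9 in Hoxd. The median difference over the 37 was 0.61, with a range of 0.06 to 1.07. By cluster the medians were 0.59 (Hoxa), 0.66 (Hoxb), 0.59 (Hoxc) and 0.61 (Hoxd). By paralog group they were 0.46 for 7 genes of groups 1 to 3, 0.61 for 14 of groups 4 to 8 and 0.60 for 16 of groups 9 to 13. The difference was above 0 for all 37 genes in the deposited values, as for 57.5% of all genes and 79.1% of those under the median level. Under both repeated quantile normalization and cyclic loess, Hoxd4 and Hoxd10 were below 0 instead, as was Hoxd10 when array medians were made equal.

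Only 3 genes rose by at least 1 log2 unit, namely Hoxd11, Hoxd1 and Hoxc12, where 1.44% of all genes and 1.54% of genes under the median level did. No Hox gene fell, by that size (5.07% of all genes and 2.07% of those under the median level) or at all (19.4% and 6.12%). Just under that size lay Hoxc5 at 0.99 and Hoxd9 at 0.95. In 28 genes all DNTLX3+ arrays lay above all RAG-/- arrays, where 32.3% of all genes and 44.2% of those under the median level did. In none did all DNTLX3+ arrays lie below all RAG-/- arrays, where 26.0% and 8.05% did. The count of 25 depended on the scaling: 17 rose after repeated quantile normalization and 16 after cyclic loess, where 18.4% and 16.8% of all genes did, and 13.9% and 12.0% of those under the median level. Without RAG-/- replicate 1, 15 rose. A set of 16 rose under all 3 scalings: Hoxa4, Hoxa5, Hoxa6, Hoxa7, Hoxa10, Hoxa13, Hoxb3, Hoxb5, Hoxb6, Hoxc4, Hoxc5, Hoxc12, Hoxc13, Hoxd1, Hoxd9 and Hoxd11. Of these, Hoxa4, Hoxa7 and Hoxb3 did not pass in some fits that left out 1 RAG-/- array (limma adjusted p of 0.0523 to 0.0725).

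**Figure D1:**
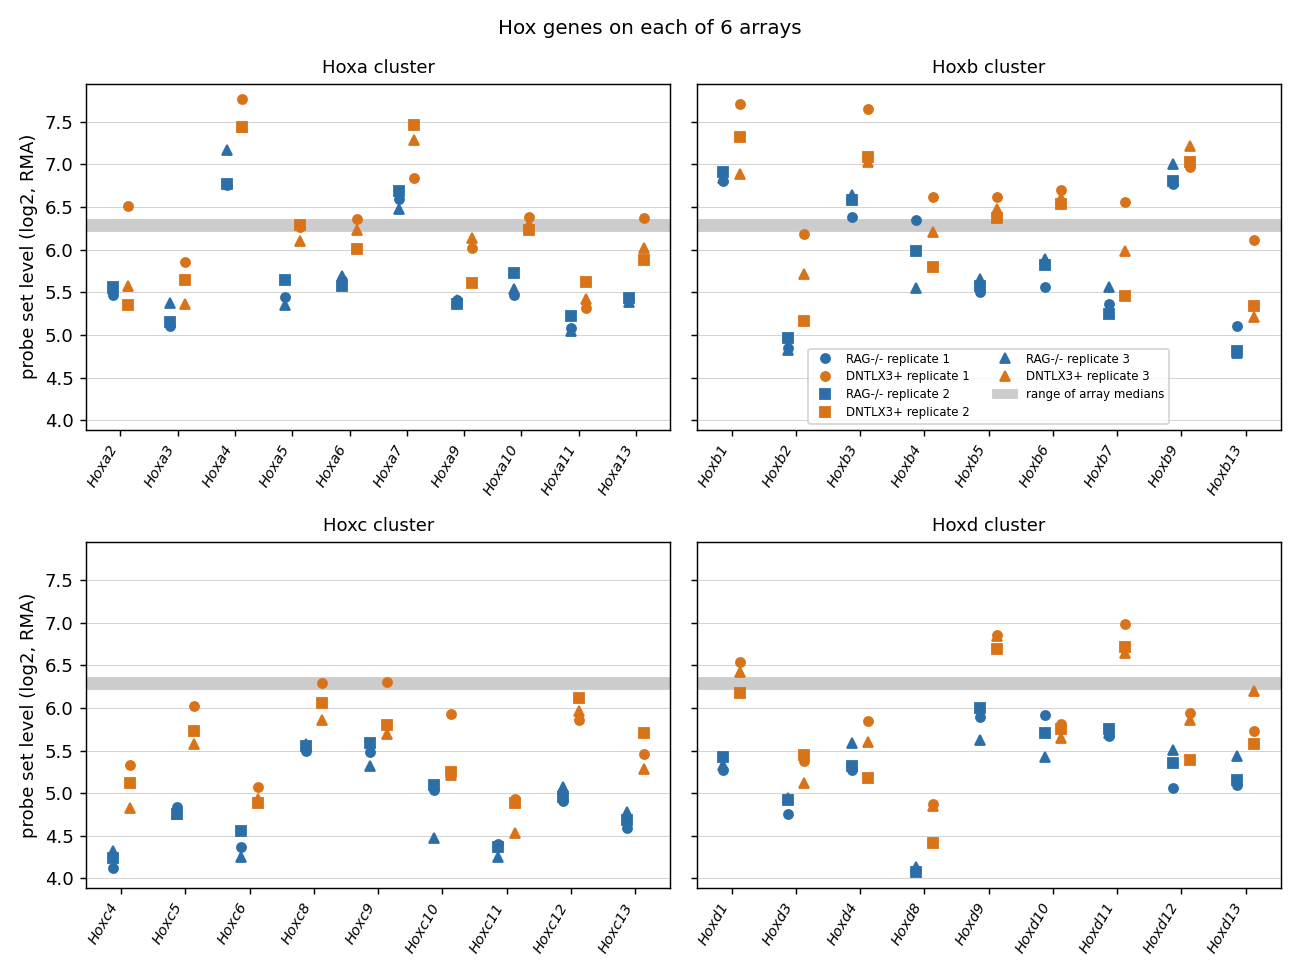
Level of each Hox gene (log2, RMA) on each of the 6 arrays, in a panel per cluster, with RAG-/- arrays in blue, DNTLX3+ arrays in orange and a symbol per replicate number; the grey band spans the array medians, 6.22 to 6.35. Most blue points lie under the band, and DNTLX3+ replicate 1 (orange circles) is the highest DNTLX3+ array in 28 of 37 genes. It is so in 7415 of all 19937 genes and in 5222 of the 9181 under the median level.

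Levels were low. The mean of the RAG-/- arrays was above the mean of their array medians for 5 genes (Hoxa4, Hoxa7, Hoxb1, Hoxb3 and Hoxb9), and 11 were above it in the DNTLX3+ group. The 6 that were above it in that group alone were Hoxa10, Hoxb5, Hoxb6, Hoxd1, Hoxd9 and Hoxd11. A level under the array medians may be mostly background, and differences there need not give the true size of a change. The median level over the 37 genes was 5.41, 5.42 and 5.42 on the RAG-/- arrays and 6.26, 5.75 and 5.96 on DNTLX3+ replicates 1, 2 and 3. DNTLX3+ replicate 1, which also had the narrowest signal range, was the highest of all 6 arrays for 27 of 37 genes. It was so for 5972 of all 19937 genes and for 4518 of the 9181 under the median level. Without that array 24 Hox genes rose, the median difference was 0.52, and 1 gene, Hoxc12, rose by at least 1. Without DNTLX3+ replicate 2, 5 genes did: Hoxb2, Hoxc5, Hoxd1, Hoxd9 and Hoxd11. The part of signal range in these differences was not tested.

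The Hoxa cluster holds the genes best known in leukaemia. Hoxa5, which is active in blood progenitors, was at 5.44, 5.65 and 5.35 on RAG-/- replicates 1 to 3 and at 6.26, 6.29 and 6.10 on the DNTLX3+ arrays. The groups did not overlap, and all 3 DNTLX3+ arrays were close together (SD 0.10). It rose by 0.74 ± 0.13 (SE), or 1.67-fold, with a limma adjusted p of 0.00285, the largest difference in its cluster. Hoxa10, linked to progenitor growth and to myeloid leukaemia, was at 5.47, 5.72 and 5.54 against 6.38, 6.23 and 6.29, again without overlap. It rose by 0.73 ± 0.13 (limma adjusted p = 0.00251), from means under the array medians to means at them.

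Hoxa4 and Hoxa7 were above the array medians on all 6 arrays, so their differences start from levels above the middle of the array. Hoxa7, a target of MLL fusion proteins, was at 6.59, 6.68 and 6.48 in the RAG-/- group and at 6.84, 7.46 and 7.29 in the DNTLX3+ group. The lowest DNTLX3+ array, replicate 1, lay just above the highest RAG-/- array. Hoxa7 rose by 0.61 ± 0.17 (limma adjusted p = 0.0187). Hoxa4 was at 6.75, 6.77 and 7.17 against 7.76, 7.43 and 7.44, with RAG-/- replicate 3 the highest of its group and still below all DNTLX3+ arrays. It rose by 0.65 ± 0.16 (limma adjusted p = 0.0118). After cyclic loess the differences of Hoxa4 and Hoxa7 were 0.74 and 0.65, so they were not smaller than in the deposited values, unlike that of Hoxa5 (0.55).

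Hoxa9, a driver of leukaemia with its cofactor Meis1, was at 5.41, 5.36 and 5.41 on the RAG-/- arrays and at 6.02, 5.60 and 6.13 on the DNTLX3+ arrays. All 6 values were under the array medians, and the groups did not overlap. It rose by 0.52 ± 0.16 (limma adjusted p = 0.0242) but did not pass after repeated quantile normalization (0.36, adjusted p = 0.0802) or cyclic loess (0.30, adjusted p = 0.116). Hoxa13, a posterior gene of limb and hindgut, was at 5.42, 5.44 and 5.39 against 6.37, 5.88 and 6.02 and rose by 0.67 ± 0.15 (limma adjusted p = 0.00696). Hoxa6 rose by 0.57. Hoxa11, a neighbour of both Hoxa10 and Hoxa13, was at 5.08, 5.22 and 5.05 against 5.32, 5.62 and 5.42. Its groups did not overlap, yet its difference of 0.33 did not pass (limma adjusted p = 0.0676; 95% interval 0.04 to 0.63). Hoxa3, which patterns the pharyngeal pouches that form the thymus, differed by 0.41 (limma adjusted p = 0.0605). Hoxa2, a hindbrain gene, was at 5.47, 5.57 and 5.54 against 6.51, 5.35 and 5.57. Only DNTLX3+ replicate 1 stood out, and without it the difference turned from 0.28 to -0.06.

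In the Hoxb cluster, Hoxb5 and Hoxb6 rose most. Hoxb5 was at 5.51, 5.57 and 5.65 on the RAG-/- arrays and at 6.61, 6.37 and 6.48 on the DNTLX3+ arrays. All DNTLX3+ arrays were above their array medians and no RAG-/- array was. It rose by 0.91 ± 0.12, or 1.88-fold (limma adjusted p = 0.000891). Hoxb6 was at 5.56, 5.82 and 5.89 against 6.69, 6.53 and 6.60, the same pattern, and rose by 0.85 ± 0.13 (limma adjusted p = 0.00158). Hoxb3, active in blood stem cells, was at 6.39, 6.58 and 6.64 against 7.65, 7.09 and 7.03 and rose by 0.72 ± 0.18 (limma adjusted p = 0.0123). It was above the medians on all 6 arrays, with DNTLX3+ replicate 1 the highest.

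Of the other Hoxb genes, 2 rose and 4 did not pass. Hoxb2 (0.81) and Hoxb13 (0.66) rose in the deposited values and did not pass after repeated quantile normalization (0.61, adjusted p = 0.0568, and 0.46, adjusted p = 0.142). Hoxb4, known for expanding blood stem cells when overexpressed, was at 6.35, 5.98 and 5.54 on the RAG-/- arrays and at 6.61, 5.80 and 6.21 on the DNTLX3+ arrays. The groups overlapped and the RAG-/- arrays themselves were widely spread (SD 0.40). Its difference of 0.25 did not pass (limma adjusted p = 0.431; 95% interval -0.31 to 0.80). Hoxb1, a hindbrain gene, was at 6.80, 6.91 and 6.84 against 7.71, 7.33 and 6.89, where DNTLX3+ replicate 3 lay within the RAG-/- range (0.46, limma adjusted p = 0.0837). Hoxb9, a posterior gene, was at 6.77, 6.81 and 7.00 against 6.97, 7.03 and 7.22. Its groups overlapped although all 6 values were above the array medians, and its difference of 0.22 was the smallest of the cluster (limma adjusted p = 0.209; 95% interval -0.08 to 0.51). Hoxb7 differed by 0.61 without passing (limma adjusted p = 0.0712).

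All 9 Hoxc genes had DNTLX3+ arrays wholly above RAG-/- arrays, where 32.3% of all genes and 44.2% of those under the median level did. No Hoxc gene had a group mean above the mean of the array medians. Hoxc12, a posterior gene, was at 4.91, 4.95 and 5.07 on the RAG-/- arrays and at 5.86, 6.12 and 5.96 on the DNTLX3+ arrays. The gap between the groups was wider than the spread within either. It rose by 1.00 ± 0.13 (limma adjusted p = 0.000633), or by 0.76 after cyclic loess. Hoxc5 (0.99), Hoxc4 (0.87) and Hoxc13 (0.80) rose as well. Hoxc6 (0.57) and Hoxc8 (0.52) rose in the deposited values and did not pass after cyclic loess (0.27, adjusted p = 0.0951, and 0.32, adjusted p = 0.0621). After repeated quantile normalization Hoxc6 did not pass either (0.32, adjusted p = 0.0598). Hoxc4 is a gene of lymphoid and progenitor cells among this otherwise mostly trunk and limb set. Hoxc11, the smallest difference of the cluster, was at 4.40, 4.37 and 4.25 against 4.93, 4.88 and 4.54. It rose by 0.44 ± 0.14 (limma adjusted p = 0.0331) and did not pass after cyclic loess (0.14, adjusted p = 0.426). Hoxc9 (0.47) and Hoxc10 (0.59) did not pass (limma adjusted p of 0.0556 and 0.0643).

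The Hoxd cluster held both the largest and the smallest difference of the 37, in adjacent genes. Hoxd11, which patterns the limb and kidney, was at 5.67, 5.76 and 5.71 on the RAG-/- arrays and at 6.99, 6.72 and 6.64 on the DNTLX3+ arrays. All RAG-/- arrays were under and all DNTLX3+ arrays above their array medians. It rose by 1.07 ± 0.13, or 2.10-fold (limma adjusted p = 0.000596; 95% interval 0.77 to 1.37), and by 0.96 after cyclic loess. Its neighbour Hoxd10 was at 5.92, 5.70 and 5.42 against 5.81, 5.75 and 5.65. There the DNTLX3+ values lay inside the RAG-/- range. The difference was 0.06 ± 0.15 (limma adjusted p = 0.778; 95% interval -0.28 to 0.39), which lies wholly below the interval of Hoxd11; the difference between the genes was not itself tested.

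Hoxd9, on the other side of Hoxd10, was at 5.89, 6.00 and 5.63 against 6.85, 6.69 and 6.84. Its groups did not overlap, and all DNTLX3+ arrays were above their medians. It rose by 0.95 ± 0.14 (limma adjusted p = 0.00113). Hoxd1, at the anterior end of the cluster, was at 5.27, 5.42 and 5.33 against 6.54, 6.18 and 6.42, with DNTLX3+ replicate 2 under its array median. It rose by 1.04 ± 0.14, or 2.05-fold (limma adjusted p = 0.000746). Hoxd8 (0.62), Hoxd13 (0.61) and Hoxd3 (0.44) rose and did not pass after cyclic loess (adjusted p of 0.0925, 0.137 and 0.336), while Hoxd12 (0.42) and Hoxd4 (0.14) did not pass in the deposited values.

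The upstream windows of Hoxd11, Hoxd10 and Hoxd1 are shown because Hoxd11 and Hoxd10, which are neighbours, had the largest and the smallest difference, and Hoxd1 the second largest. Each is the 250 bases before a RefSeq start on GRCm38.p6, written 5′ to 3′ on the gene's strand. For Hoxd11, which has 2 listed starts, the one nearer to Hoxd10 is given. Capitals mark TAATTA, a homeodomain core, and TGATTNAT, a Hox-Pbx motif, searched on both strands.
Hoxd11, chr2:74682073-74682322, plus strand: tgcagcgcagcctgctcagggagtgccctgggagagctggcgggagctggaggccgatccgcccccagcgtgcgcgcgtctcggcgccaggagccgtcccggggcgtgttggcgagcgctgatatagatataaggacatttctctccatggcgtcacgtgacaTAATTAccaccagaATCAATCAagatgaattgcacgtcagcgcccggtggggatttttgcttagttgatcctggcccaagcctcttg
Hoxd10, chr2:74691641-74691890, plus strand: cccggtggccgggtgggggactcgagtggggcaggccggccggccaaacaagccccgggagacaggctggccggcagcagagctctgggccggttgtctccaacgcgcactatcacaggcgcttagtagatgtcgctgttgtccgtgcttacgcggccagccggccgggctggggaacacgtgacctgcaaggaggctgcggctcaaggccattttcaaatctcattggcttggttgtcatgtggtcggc
Hoxd1, chr2:74762730-74762979, plus strand: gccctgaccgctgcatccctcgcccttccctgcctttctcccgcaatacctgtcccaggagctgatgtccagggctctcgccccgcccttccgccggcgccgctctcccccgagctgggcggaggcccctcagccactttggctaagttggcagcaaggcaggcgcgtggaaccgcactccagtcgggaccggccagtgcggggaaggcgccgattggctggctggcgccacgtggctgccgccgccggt

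Windows were listed for 21 of the 37 genes, 23 windows in all. TAATTA was in 2 of the 23, both of Hoxd11, and in 4.84% of 32851 windows of all genes. TGATTNAT was in 2, of Hoxd11 and Hoxa2, and in 2.82% of all. TATAAA, searched in the same way, was in 3 Hox windows (of Hoxa10, Hoxd4 and Hoxd13) and in 12.4% of all. No 2 different motifs overlapped in a Hox window, and the windows of Hoxd10 and Hoxd1 held none of the 3. The median GC content was 59.2% in the Hox windows and 52.4% in all, and the median number of CG dinucleotides was 13 and 6. A match describes the letters only.

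**Figure D2:**
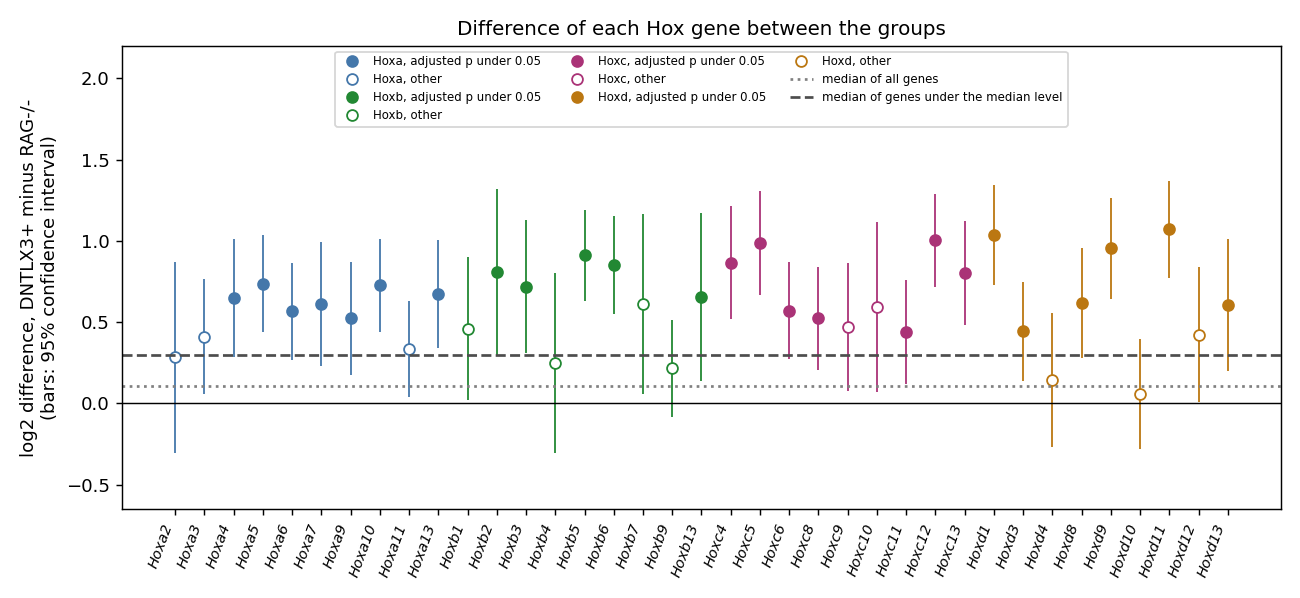
Difference of each Hox gene (log2, DNTLX3+ minus RAG-/-) with its 95% confidence interval from limma, by number within each cluster; filled points passed the adjusted p of 0.05, and the lines mark the median of all genes (0.11) and of genes under the median level (0.30). The 25 filled points stand from 0.44 to 1.07, and Hoxd10 beside Hoxd11 is the lowest of all.

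Other transcripts of the clusters were measured for 10 symbols, of which 4 rose and none fell (median 0.40, against 0.61 for the Hox genes). That count is near the 32.4% of genes under the median level that rose, where 23.0% of all genes did. After cyclic loess the median of the 10 was 0.09 and 1 rose, Mir615, where 12.0% of genes under the median level and 16.8% of all genes did. Mir615 lies in the Hoxc cluster, in an intron of Hoxc5. It was at 7.44, 7.56 and 7.45 on the RAG-/- arrays and at 8.80, 8.52 and 8.49 on the DNTLX3+ arrays, above the medians on all 6 and without overlap. It rose by 1.12 ± 0.13 (limma adjusted p = 0.000487), beside 0.99 for Hoxc5. Mir10b (0.73), Mir196a-1 (0.57) and Mir196b (0.56) rose from levels under the array medians, and Mir10a (0.47) and Mir196a-2 (0.33) did not pass. The cluster transcripts Hottip, Hoxaas2, Hoxd3os1 and Haglr differed by 0.14 to 0.29 and did not pass. The sources used here do not give which form of a microRNA these probe sets read.

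For 5 mature microRNAs of these loci, the sequences are shown because miR-196 and miR-10 are known to bind Hox messages. Sequences are from RefSeq on GRCm38.p6, with the seed, bases 2 to 8, in capitals.
mmu-miR-10a-5p: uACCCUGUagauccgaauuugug
mmu-miR-10b-5p: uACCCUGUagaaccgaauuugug
mmu-miR-196a-5p: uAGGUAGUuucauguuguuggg
mmu-miR-196b-5p: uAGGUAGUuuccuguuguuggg
mmu-miR-615-3p: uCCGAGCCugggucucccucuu
miR-10a and miR-10b share 1 seed and differ by U12A. miR-196a, made from both Mir196a-1 and Mir196a-2, shares its seed with miR-196b and differs from it by A12C. Positions are counted from 1 at the 5′ end, with miR-10a and miR-196a first.

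Most genes beside the clusters were not higher in the DNTLX3+ arrays. Of 16 flanking genes on the same chromosomes, 3 rose and 6 fell, where 23.0% and 19.4% of all genes did. Among genes at or above the median level those shares were 15.1% and 30.6%. Evx1 and Evx2, homeobox genes at the posterior ends of Hoxa and Hoxd, rose by 0.66 and 0.97, Evx1 no longer passing after cyclic loess (0.39, adjusted p = 0.0636). The other 14 had a median of -0.44, and 13 of them were below 0. Atp5g2, another listed flanking gene, was left out of the 16. Its probe set with the highest mean gave -0.21, while others gave 1.30 and 2.25. Skap2, an adaptor of immune cell signalling beside Hoxa, fell by 0.93 and Calcoco1, beside Hoxc, fell by 0.85. These genes are mostly brighter than the Hox genes, with 12 of 14 above the array medians in the RAG-/- group, and genes at or above the median level had a median of -0.14.

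A list of homeobox genes outside the clusters moved much as the Hox genes did. It left out Meis1, Meis2 and Pbx4, homeobox genes given below as Hox cofactors, which fell by 1.32, 0.73 and 0.83. Of 52 listed and measured, 40 rose and none fell, with a median of 0.63, against 0.61 for the Hox genes. Of all genes 23.0% rose and 19.4% fell. The 30 listed genes under the median level had a median of 0.62, and 21 of those rose. Of all genes under the median level 32.4% rose and 6.12% fell. After cyclic loess 33 of the 52 rose, with a median of 0.55, against 16 of 37 and 0.39 in the Hox genes. In that scaling 16.8% of all genes rose, and 12.0% of those under the median level. The 2 lists differ in level. Under the median level, 14 of 30 listed genes rose after cyclic loess (median 0.40), against 12 of 31 Hox genes (median 0.37). The largest differences in the list, in the deposited values, were Dlx2 (1.34) and Dbx1 (1.27), genes of the developing forebrain and spinal cord, and Emx2 (1.24). Tlx3 itself was at 1.24, and TLX3 is the gene that the vector carried. Over 1190 olfactory and vomeronasal receptor genes, which serve smell, the median was 0.32, which was 0.03 after repeated quantile normalization and -0.0004 after cyclic loess. These receptors are dimmer than the Hox genes, so the 2 sets are not matched in level. Their median level was 3.81 to 3.90 on the RAG-/- arrays, against 5.41 to 5.42 for the Hox genes.

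**Figure D3:**
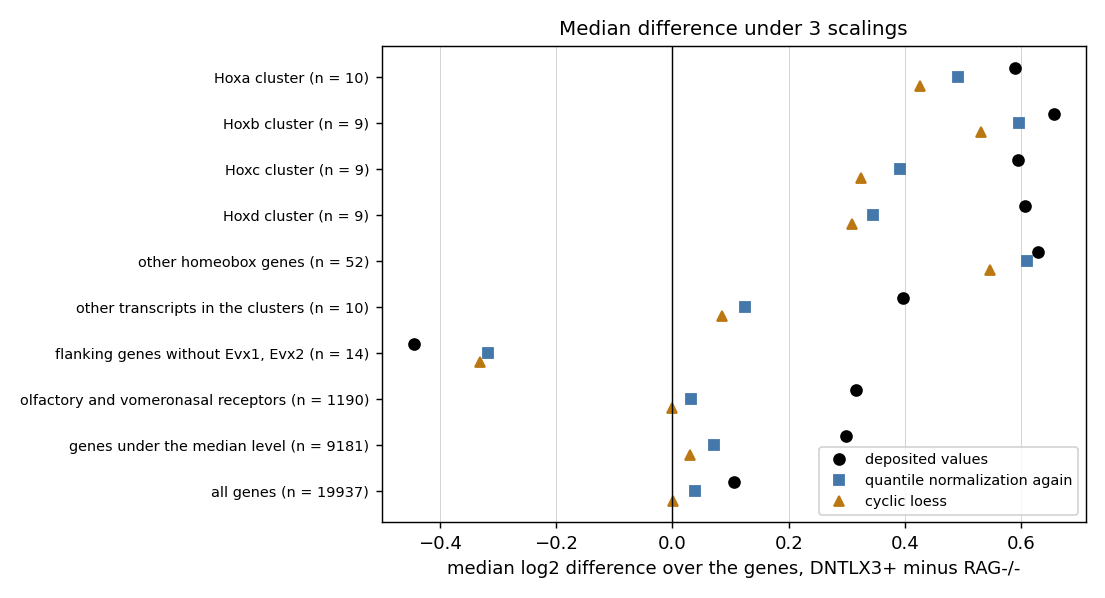
Median log2 difference (DNTLX3+ minus RAG-/-) over each gene group in the deposited values (circles), after repeated quantile normalization (squares) and after cyclic loess (triangles). The 4 Hox clusters and the listed homeobox genes outside them range from 0.31 to 0.66 under all 3. After rescaling, receptors, dim genes and all genes range from -0.0004 to 0.07. Other transcripts in the clusters are then at 0.12 (repeated quantile normalization) and 0.09 (cyclic loess).

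**Figure D4:**
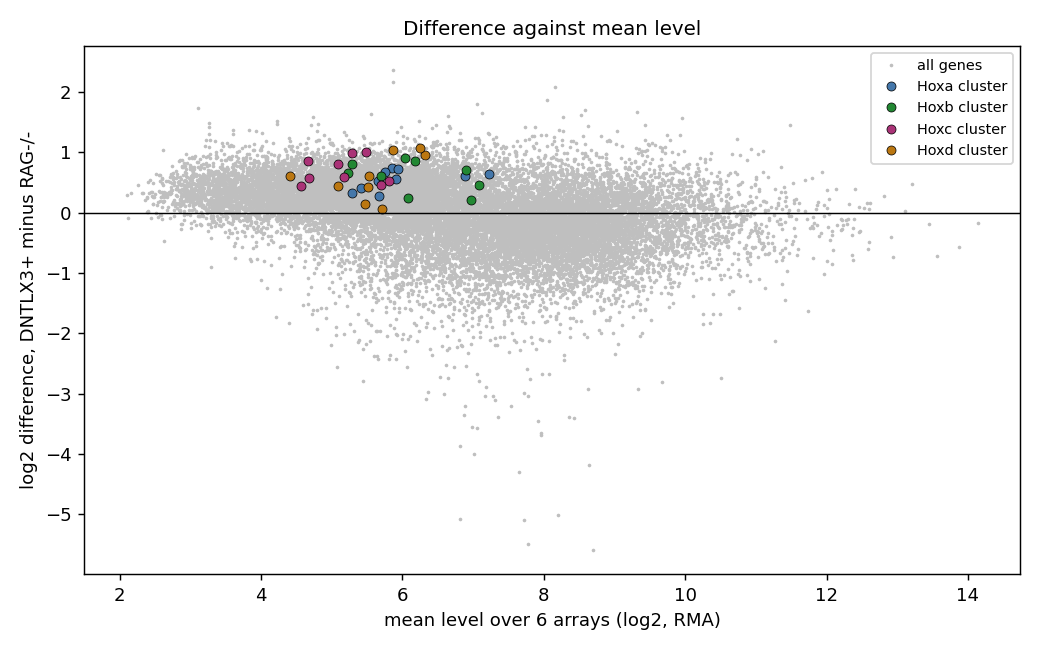
Difference (log2, DNTLX3+ minus RAG-/-) against mean level over the 6 arrays (log2) for 19937 genes in grey and the Hox genes in colour by cluster. Of the 37 Hox genes, 31 lie under the median level, with differences from 0.06 to 1.07, among many other dim genes above 0.

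Known partners and regulators of Hox clusters moved in both directions. Their counts stand beside the shares of all genes that rose (23.0%) and fell (19.4%) and, for lists of brighter genes, of the genes at or above the median level (15.1% rose and 30.6% fell). Of 8 TALE cofactors, which bind DNA together with Hox proteins, 1 rose and 3 fell, while 3 rose and 3 fell after either rescaling. Meis1, the partner of Hoxa9 in leukaemia, was at 6.26, 6.38 and 7.03 on the RAG-/- arrays and at 5.74, 4.80 and 5.17 on the DNTLX3+ arrays. It fell by 1.32 ± 0.26 (limma adjusted p = 0.00463) without overlap, and Pbx4 fell by 0.83, while Pbx3 differed by 0.00. Of 20 trithorax and MLL-complex genes, 1 rose, 7 fell and 12 did not pass, with a median of -0.23. All 20 had group means above the array medians, and 30.6% of all genes at or above the median level fell. After repeated quantile normalization 4 rose and 6 fell (median -0.05), and after cyclic loess 4 rose and 7 fell (median -0.07). Kmt2a, the MLL methyltransferase that maintains Hoxa transcription, fell by 1.23 and its relative Kmt2c fell by 1.27, both by over 1 after cyclic loess as well. Both were lowest on DNTLX3+ replicate 1, at 8.60 and 7.13.

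Of 24 Polycomb genes, 4 rose and 4 fell, with a median of -0.12, and all 24 had group means above the array medians. The median turned to 0.04 after repeated quantile normalization (6 rose and 2 fell) and to 0.03 after cyclic loess (6 rose and 3 fell). Phc3 fell by 1.15 and Rybp rose by 1.14, the latter on the brighter-mean probe set chosen by the rule, while a second gave 0.12. Ezh2, the H3K27 methyltransferase, was at 10.47 and 10.45 in the group means. Of the H3K27 demethylases, Kdm6a fell by 0.68 but did not pass after either rescaling (-0.53 after cyclic loess, limma adjusted p = 0.0588). Kdm6b differed by 0.19 without passing in the deposited values and rose after either rescaling. Of 12 retinoid and Cdx genes, which act upstream of Hox clusters in the embryo, 5 rose and none fell. After either rescaling 2 rose, Rara, the retinoic acid receptor alpha (0.70 in the deposited values), and Cdx1 (0.55). Of 13 blood progenitor markers, 1 rose and 5 fell. Of 10 genes known from T-cell leukaemia with HOXA or TLX activity, 3 rose, among them Tlx3 itself, and 4 fell. Both lists are to be read against the 23.0% and 19.4% of all genes.

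Hox genes are also active in stromal cells, so markers of the other cells that samples could hold were set beside them. The counts below stand beside the 23.0% of all genes that rose and the 19.4% that fell. Among genes at or above the median level those shares were 15.1% and 30.6%. Of 22 stromal and mesenchymal markers, 4 rose and 5 fell (median 0.02), which is near the shares of all genes. The summed linear level of the 22 was 5200 to 5780 on the RAG-/- arrays and 4990 to 5280 on the DNTLX3+ arrays. The 22 include Thy1, also listed as a T-lineage marker, with a mean level of 11.54 and a difference of 0.21. Thy1 makes up a large part of these sums, which were not computed without it, so they do not give a level of stroma. Col1a1, a fibroblast collagen, was at 7.44, 7.35 and 7.66 against 7.54, 7.39 and 7.53, while Cxcl12, which OP9-type stroma is known to make, fell by 1.61 and Vcam1, an adhesion molecule, fell by 3.39. The other 3 that fell were Dcn, Fn1 and Sparc, which encode matrix proteins. The 4 that rose were Twist1 (0.84) and Twist2 (0.41), transcription factors of mesenchyme, the collagen gene Col5a1 (0.68) and the actin gene Acta2 (0.52, which did not pass after either rescaling). Of 19 thymic epithelial markers, 1 rose and 12 fell, led by Prss16 (-5.60), with sums of 8180 to 14400 against 2190 to 2440. Of 24 myeloid and dendritic markers, none rose and 19 fell, led by H2-Aa (-5.50), with sums of 8620 to 10400 against 1360 to 1450. Of 19 NK markers, 1 rose and 15 fell, led by Ccl5 (-3.68), with sums of 4220 to 4920 against 1820 to 2270. None of these summed levels is 0. In bulk samples, fewer cells of a type and less RNA per cell cannot be told apart, and the part of these cells in the Hox differences was not tested.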

How the data were processed

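Biotin-labelled total RNA of 6 samples was hybridised to 1-colour arrays, per the labels. The deposited values are log2 levels per probe set, for which the submitters' processing notes name RMA, affy and R 2.9.0. The sources used here name no genome build.

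Of 34760 probe sets, 6568 with low numbers and no listed gene were left out. The other 28192 entered a two-sided limma 3.58.1 fit without covariates (R 4.3.3), with Benjamini-Hochberg adjustment over all of them. Groups and replicate numbers came from the titles. Levels above and below the array medians were compared on the log2 scale, and summed levels are sums of 2 to the power of the log2 value. The fit was tested on simulated data.

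Values are given array by array for genes that rose by at least 1, had a group mean above the mean of its array medians, or were the extremes of a cluster, and for Hoxa5, Hoxa7, Hoxa9, Hoxa10, Hoxa11, Hoxa13 and Hoxb4. From other lists, leading members are named, and some names were picked with values in view. The members and lists were chosen with earlier results of these data known. The sources used here give no probe positions, and transcripts of neighbouring Hox genes can overlap. A probe set listing a Hox gene with another gene (1 in all) was not used. Gene names are from the platform annotation, and promoter and microRNA sequences are from RefSeq.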

Additional observations from a re-analysis of the deposited data

How the results depend on the processing

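The median difference over the 37 Hox genes was 0.61 and stayed above 0 under every alternative run, at 0.46 after repeated quantile normalization, 0.55 with equal array medians and 0.39 after cyclic loess. No Hox gene fell at the adjusted p under any of them. The 25 genes that rose became 16 after cyclic loess and 4 of the 6 left when probe sets under the median level were left out. They were 15 to 26 when an array was left out, with 15 without RAG-/- replicate 1. The 3 that rose by at least 1 became 1 after repeated quantile normalization or with equal array medians, and 0 after cyclic loess, with limma treat, or without probe sets under the median level. Leaving out arrays gave 1 to 5. The replicate number as a block gave 27 genes that rose and again 3 by at least 1. The numbers were not taken to pair the samples, since deviations of same-numbered arrays correlated at -0.108, 0.06 and -0.002 for numbers 1, 2 and 3.

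Directions turned for genes that had not passed. Hoxd10 (0.06) was at -0.11 after repeated quantile normalization, -0.0049 with equal medians, -0.16 after cyclic loess and -0.021 with array weights. Hoxd4 (0.14) was at -0.038 after repeated quantile normalization and -0.10 after cyclic loess. With an array left out, Hoxd10 ranged from -0.073 (without RAG-/- replicate 3) to 0.17, Hoxd4 from -0.010 (without DNTLX3+ replicate 1) to 0.32 and Hoxa2 (0.28) from -0.064 (without DNTLX3+ replicate 1) to 0.51. The number of arrays, 3 a group, limits the precision. The cause of these changes was not tested.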
